A study of Mus musculus with 24 samples.

Results

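The Trav3-3 and Trav3-4 segments are variable (V) segments of the T cell receptor alpha chain, and 4 of the 117 Tcra V segments listed belong to them: TRAV3D-3, TRAV3N-3, TRAV3-3 and TRAV3-4. They were taken by name from the tables of the 6 Tcra libraries, as every segment named TRAV3, TRAV3D or TRAV3N with the number 3 or 4. TRAV3-4 was listed as a single copy, whereas the other 3 segments are copies of one another and are called the Trav3-3 copies here. The libraries came from thymocytes of C57BL/6 mice aged 4 to 12 weeks, 3 from mice without Satb1 (KO) and 3 from wild-type mice (WT). Satb1 is a nuclear protein that folds and organises chromatin in thymocytes; the labels write the KO genotype as Satb1-/-, while the series design speaks of a conditional knockout and does not name the Cre line. Alpha transcripts were copied by 5′ RACE, which amplifies from the 5′ end of the RNA whatever V segment it carries, and the comparison asked which V and J segments they joined. Neither Satb1 nor any marker of cell type is measured in these tables, so genotype and tissue rest on the labels.

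An alpha chain gene is made when 1 V segment is joined to 1 joining (J) segment of the J array, which lies downstream of the V segments. Thymocytes first join V segments near the array to J segments at its 5′ end, and later rearrangements replace that product with V segments further upstream and J segments further 3′. In C57BL/6 mice a stretch of V segments has been duplicated, so that many V segments exist as an unsuffixed copy nearest to the J array and as copies with D or N in the name further upstream. A V segment encodes the first and second loops with which the receptor meets its ligand.

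On GRCm38, GENCODE M21 places all 4 segments on the forward strand of chromosome 14. Trav3d-3 lies at chr14:52972448-52973038, 1184 kb upstream of Traj58, the first J segment listed. Trav3n-3 lies at chr14:53283585-53284175, 873 kb upstream of Traj58. Trav3-3 lies at chr14:53665929-53666506 and Trav3-4 at chr14:53776956-53777576, 491 and 380 kb upstream of Traj58. The second exon of each, which encodes the V region, is shown because it is what a caller has to tell the copies apart. It spans 291 bases in all 4 segments. In TRAV3D-3 and TRAV3-3 the capitals mark the 4 positions at which the Trav3-3 copies differ, and in TRAV3-4 the 28 bases that differ from TRAV3-3. The sequence of TRAV3N-3 is the same as that of TRAV3D-3.
TRAV3D-3: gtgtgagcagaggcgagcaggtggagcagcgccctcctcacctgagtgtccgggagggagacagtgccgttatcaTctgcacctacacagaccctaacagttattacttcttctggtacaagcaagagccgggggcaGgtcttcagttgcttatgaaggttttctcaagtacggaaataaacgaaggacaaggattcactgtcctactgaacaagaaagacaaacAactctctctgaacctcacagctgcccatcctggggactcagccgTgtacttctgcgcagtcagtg
TRAV3-3: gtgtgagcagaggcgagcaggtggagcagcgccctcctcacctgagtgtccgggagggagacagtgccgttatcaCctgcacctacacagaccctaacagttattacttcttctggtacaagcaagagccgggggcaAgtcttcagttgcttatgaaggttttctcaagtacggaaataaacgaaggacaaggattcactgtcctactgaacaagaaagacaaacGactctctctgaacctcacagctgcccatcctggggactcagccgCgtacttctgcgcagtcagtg
TRAV3-4: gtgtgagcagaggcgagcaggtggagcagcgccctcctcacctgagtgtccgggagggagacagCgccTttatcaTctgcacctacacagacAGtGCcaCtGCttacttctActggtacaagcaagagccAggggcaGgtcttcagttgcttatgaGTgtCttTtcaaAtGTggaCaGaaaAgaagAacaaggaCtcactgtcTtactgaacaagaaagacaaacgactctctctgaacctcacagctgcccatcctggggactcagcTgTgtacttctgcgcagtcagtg
Counted from the first base of the exon, TRAV3D-3 and TRAV3-3 differ by T76C, G138A, A226G and T271C, where the base of TRAV3D-3 stands first, and are 98.6% identical. The whole reference transcripts of TRAV3D-3 and TRAV3N-3, 427 bases each, are identical too, so the division of assignments between these 2 names is uncertain and depends on a caller that is not given in the sources used here. TRAV3-4 is 90.4% identical to TRAV3-3 and 91.1% identical to TRAV3D-3. Its nearest relative is TRAV3-1, the one further Trav3 segment described here, at 97.9%.

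Each value is a percentage of a library's alpha assignments, and the cells of a library sum to 100%. The tables hold no counts, so depth is unknown. The smallest value above 0, which sets the resolution, was 0.0180%, 0.0593% and 0.117% in KO replicates 1, 2 and 3 and 0.0158%, 0.0157% and 0.0241% in the WT replicates. A segment listed at 0 in KO replicate 2 or 3 could therefore hold a share that a WT library would list. The KO libraries differed among themselves, and replicate 1 held V–J pairs that the others lacked. Of the 12 pairs of the 4 segments found in WT replicate 1 and in no other WT library, KO replicate 1 held 6, and KO replicates 2 and 3 held 0 each. Over all V segments KO replicate 1 held 159 of 461 such pairs, and KO replicates 2 and 3 held 39 and 28. Of the pairs found in WT replicate 2 alone KO replicate 1 held 58 of 447, and of those in WT replicate 3 alone 40 of 258. KO replicate 1 thus shared more with WT replicate 1 than with the other WT libraries, and the reason was not tested. Some results are therefore also given without KO replicate 1. The labels name no batch and do not say that replicates were separate mice, so each p-value reflects variation among these libraries, which may be technical. In RNA of whole thymocytes, fewer cells carrying a segment and less RNA per cell cannot be told apart.

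The Trav3-3 copies held a smaller part of KO libraries than of WT libraries, and the suffixed copy TRAV3D-3 differed most of the 4 segments in percentage points. TRAV3D-3 held 1.17%, 0.297% and 0.117% of the 3 KO libraries, against 4.39%, 4.47% and 2.36% of the 3 WT libraries. Every KO library lay below every WT library, with KO replicate 1 the highest of the KO libraries. The 0.117% of KO replicate 3 is the smallest value that this library lists. The means were 0.529% ± 0.565 in KO and 3.74% ± 1.20 in WT (SD, n = 3 each), and the KO mean without replicate 1 was 0.207%. TRAV3D-3 was the 33rd most used V segment of 117 in KO and the 6th in WT. On the log2(percent + 0.0157) scale, where 0.0157% is the smallest value of the finest library, its fold change was -3.30 (SE 0.841), and limma gave an adjusted p of 0.0602 over the 84 V segments tested. It therefore did not pass the threshold of 0.05. It passed in 7 of the alternative fits, among them those without KO replicate 1 (log2 fold change -4.15, adjusted p = 0.00955) and without KO replicate 3 (-2.57, adjusted p = 0.0489). In the other alternative fits it did not pass, among them that with each V–J pair counted once.

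TRAV3N-3 was rare in both genotypes. It held 0.0361% of KO replicate 1 and was listed at 0 in KO replicates 2 and 3, against 0.158%, 0.283% and 0.0481% of the WT libraries. The KO libraries lay below the WT libraries, but the lowest WT value was under the smallest value that KO replicates 2 and 3 could list. Its mean over the 6 libraries was under the 0.1% required for the test.

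TRAV3-3, the copy nearest to the J array, held 1.88%, 1.42% and 1.06% of the KO libraries, against 3.20%, 2.17% and 3.37% of the WT libraries. The genotypes did not overlap, and the means were 1.45% ± 0.411 in KO and 2.91% ± 0.649 in WT (SD, n = 3 each). Its log2 fold change of -1.01 (SE 0.509) did not pass, with a limma adjusted p of 0.238, and was 0.073 when each V–J pair was counted once per library. TRAV3-4 differed from the Trav3-3 copies in that its genotypes overlapped: it held 1.03%, 1.42% and 0.469% of the KO libraries, against 0.998%, 1.46% and 0.626% of the WT libraries. The means were 0.974% ± 0.480 in KO and 1.03% ± 0.419 in WT (SD, n = 3 each). Its log2 fold change was -0.13 (SE 0.623) with a limma adjusted p of 0.867, and 0.79 when log values were centred within each library.

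Over all V segments tested, 4 of 84 passed in either direction (4.76%) and 1, TRAV3-1, fell (1.19%); of the 3 segments described here that were tested, 0 passed, while 23 of the 84 had an unadjusted p under 0.05. The genotypes were apart, with KO lower, in 27 of the 84 tested V segments (32.1%) and in 2 of the 3 tested here, TRAV3D-3 and TRAV3-3. The median log2 fold change of all 84 was -0.73, and centring the log values within each library moved it to 0.20. Set against that median, TRAV3D-3 lay further down and TRAV3-4 lay above it. From the lowest, TRAV3D-3 had the 3rd log2 fold change of 84, TRAV3-3 the 37th and TRAV3-4 the 62nd.

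**Figure D1:**
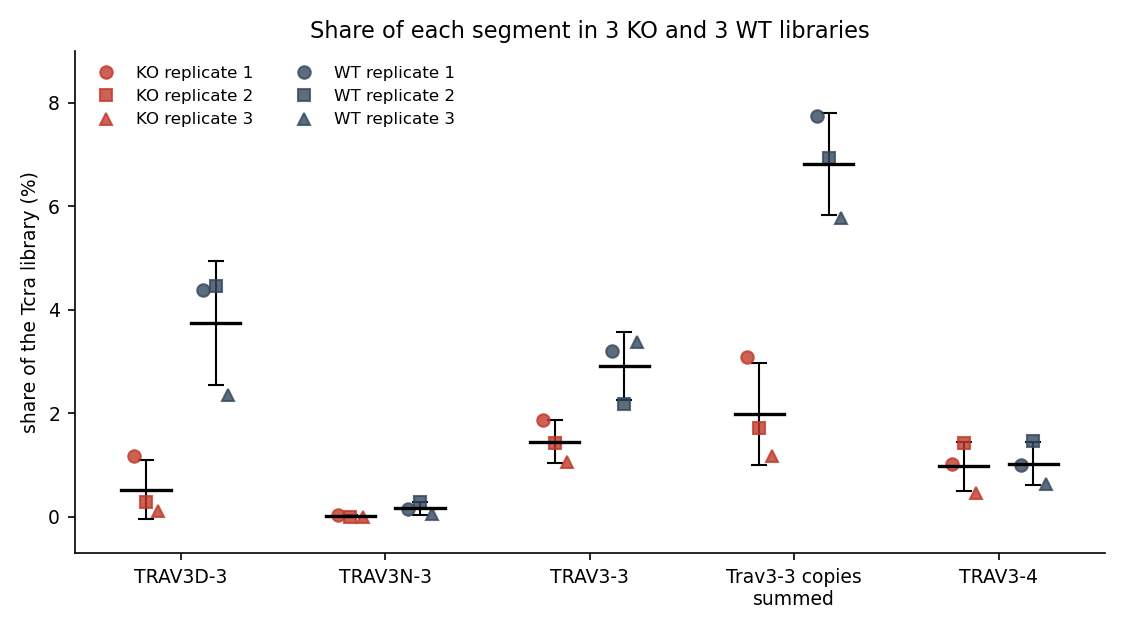
Share of each segment in percent of the Tcra library (vertical axis); symbols are single libraries, black lines the mean and bars the SD of 3 libraries, with KO left of WT. TRAV3D-3 lies at 0.117% to 1.17% in KO and 2.36% to 4.47% in WT, while the ranges of TRAV3-4 overlap.

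Summed over the 3 copies, Trav3-3 fell in KO. The sum was 3.09%, 1.72% and 1.17% of the KO libraries, against 7.75%, 6.92% and 5.78% of the WT libraries, with no overlap and with KO replicate 1 the highest of the KO libraries. The means were 1.99% ± 0.985 in KO and 6.82% ± 0.991 in WT (SD, n = 3 each), and the KO mean without replicate 1 was 1.45%. The sum ranked 17th of 53 V copy groups in KO and 3rd in WT, a copy group being all V segments whose names differ only by D or N. Its log2 fold change was -1.87 (SE 0.462) with a limma adjusted p of 0.0274 over 48 copy groups tested, of which 6 passed as lower in KO (12.5%) and 16 had KO libraries below all WT libraries (33.3%). The other copy group here, TRAV3-4, did not pass (limma adjusted p = 0.954). The call for the summed copies did not hold without KO replicate 2 (adjusted p = 0.0518) or without WT replicate 1, 2 or 3 (limma adjusted p of 0.104, 0.133 and 0.0710), and held without KO replicate 1 or 3. With log values centred within each library the log2 fold change was -1.22 (adjusted p = 0.0871), and with each pair counted once it was -0.44 (adjusted p = 0.426).

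Within the sum, the copy nearest to the J array made up a larger part in KO. TRAV3-3 made up 60.8%, 82.8% and 90.0% of the summed copies in the KO libraries, against 41.3%, 31.4% and 58.3% in the WT libraries. Every KO library lay above every WT library, although KO replicate 1 and WT replicate 3 were close. The means were 77.9% ± 15.2 in KO and 43.7% ± 13.6 in WT (SD, n = 3 each), a difference of 34.2 percentage points, and the KO mean without replicate 1 was 86.4%. An exact two-sided permutation test gave p = 0.1, the smallest that 3 against 3 libraries allow, and an adjusted p of 0.185 over 37 single values tested. TRAV3D-3 made up 38.01%, 17.2% and 10.0% of the sum in the KO libraries, against 56.6%, 64.5% and 40.8% in the WT libraries. In KO replicate 3 that part was 1 J segment at the smallest value of the library. In KO replicate 2 it was 4 J segments, 3 of them at the smallest value. The balance in these 2 libraries, and the mean without replicate 1, therefore rest on few assignments. TRAV3N-3 made up at most 1.17% of the sum in a KO library and at most 4.09% in a WT library, so that adding it to TRAV3D-3 left the balance nearly the same.

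A higher part of the unsuffixed copy in KO was seen in other copy groups too. Of 25 other copy groups with suffixed and unsuffixed copies and a mean of at least 0.5%, 16 had a higher mean part of the unsuffixed copy in KO, and 7 of them (28% of the 25) did so without overlap between genotypes. The 25 include TRAV16, whose unsuffixed copy was at 0 in every library and so could not differ. The difference ranged from -10.5 to 41.3 percentage points with a median of 4.77, and 2 groups, TRAV7-6 and TRAV14-3, exceeded the 34.2 points of the Trav3-3 copies.

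**Figure D2:**
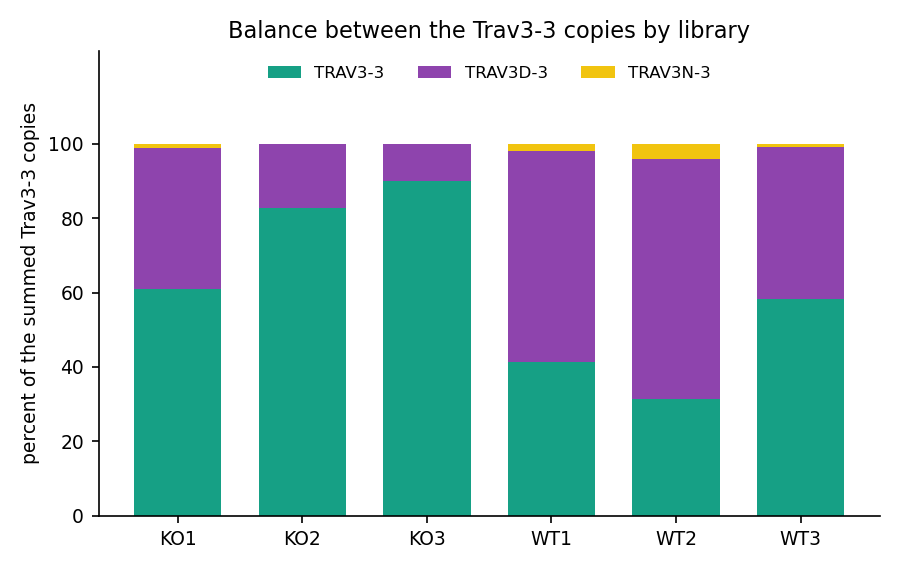
Parts of the 3 Trav3-3 copies in percent of their sum (vertical axis), one bar per library, with KO libraries left of WT libraries. TRAV3-3 takes 60.8% to 90.0% of the sum in KO and 31.4% to 58.3% in WT. In KO3 the part of TRAV3D-3 is 1 J segment at the smallest value of that library.

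The J segments joined were also compared between the 4 segments. J segments are numbered from the 3′ end, so that a high number lies near the V segments, and of the 43 J segments listed the 13 numbered Traj42 or above are called 5′ J here and the 14 numbered Traj21 or below 3′ J. In WT libraries TRAV3D-3, the name placed furthest from the array, was joined further into it than TRAV3-3, the nearest copy. The mean J number of TRAV3D-3 was 23.6, 22.9 and 27.9 in the WT libraries, against 31.3, 29.8 and 32.3 for TRAV3-3 in the same libraries. TRAV3N-3, which lies between them and cannot be told from TRAV3D-3 by its transcript, had 16.2, 20.8 and 19.5 from few joins. TRAV3D-3 minus TRAV3-3 was -15.1, -13.5 and 3.11 in the KO libraries, the last of these from 1 J segment, and -7.70, -6.92 and -4.39 in the WT libraries. This difference was below 0 in 5 of 6 libraries and did not pass (exact sign-flip permutation p = 0.0625, adjusted p = 0.185). Among 24 other copy groups with a WT value, 21 had their suffixed copies at the lower mean J number, with a median difference of -5.07, against -6.53 for TRAV3D-3 and TRAV3N-3 set against TRAV3-3.

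Joins to 5′ J took a larger part of KO libraries as a whole: over the V segments other than the 4 described here they made up 75.9% ± 6.27 in KO and 30.2% ± 1.75 in WT (SD, n = 3 each), without overlap. KO minus WT was 42.1 percentage points for TRAV3-3, against 45.7 for those V segments. For TRAV3-3, 5′ J held 56.7%, 83.3% and 66.7% of its assignments in the KO libraries, against 30.7%, 29.0% and 20.7% in the WT libraries. Its 3′ J part was 4.81%, 4.17% and 0% in KO, against 25.2%, 32.6% and 20.7% in WT. Its mean J number was 45.01 ± 3.43 in KO and 31.1 ± 1.22 in WT (SD, n = 3 each). The genotypes did not overlap in any of these 3 values, and each had p = 0.1 in the exact two-sided permutation test and an adjusted p of 0.185. TRAV3-3 was found with 28, 14 and 8 J segments in the KO libraries and with 40, 41 and 35 in the WT libraries.

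For TRAV3D-3 the KO libraries disagreed. Its 5′ J part was 18.5%, 60.0% and 100% in KO replicates 1, 2 and 3, against 13.0%, 14.8% and 14.3% in the WT libraries, but KO replicate 2 held it with 4 J segments, 3 of them at the smallest value of that library, and KO replicate 3 with 1. In KO replicate 1, which held it with 34 J segments, the 3′ J part was 36.9%, inside the WT range of 30.6% to 46.6%. The mean J number of TRAV3D-3 was 26.6, 35 and 48 in KO, against 23.6, 22.9 and 27.9 in WT, and the genotypes overlapped (exact two-sided permutation p = 0.2, adjusted p = 0.285). TRAV3N-3 was found with 2 J segments in KO replicate 1, both 5′ J, and with 9, 13 and 2 J segments in the WT libraries, where 3′ J held 70.0%, 61.1% and 50.0% of it.

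TRAV3-4 also had a larger 5′ J part in every KO library than in any WT library. Its 5′ J part was 47.4%, 87.5% and 100% in the KO libraries, against 25.4%, 18.3% and 30.8% in the WT libraries, and its 3′ J part was 10.5%, 0% and 0% in KO, against 28.6%, 47.3% and 23.1% in WT. Its mean J number was 40.2, 52.7 and 54.8 in KO and 28.1, 24.5 and 34.1 in WT. The genotypes did not overlap, with means of 49.2 ± 7.86 in KO and 28.9 ± 4.85 in WT (SD, n = 3 each; exact two-sided permutation p = 0.1, adjusted p = 0.185). Without KO replicate 1 the KO mean was 53.7. The V segments other than TRAV3-4 had mean J numbers of 47.1 ± 2.23 in KO and 30.6 ± 1.52 in WT (SD, n = 3 each), and TRAV3-4 minus these was -4.34, 4.43 and 6.17 in the KO libraries and -1.72, -5.07 and 1.76 in the WT libraries. The genotypes overlapped in that difference, KO minus WT being 3.76 (exact two-sided permutation p = 0.3, adjusted p = 0.383), and TRAV3-4 lay above the rest in 3 libraries and below it in 3 (exact sign-flip permutation p = 0.875, adjusted p = 0.951). TRAV3-4 was found with 25, 9 and 3 J segments in KO and with 27, 35 and 17 in WT, so KO replicate 3 rests on few joins.

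**Figure D3:**
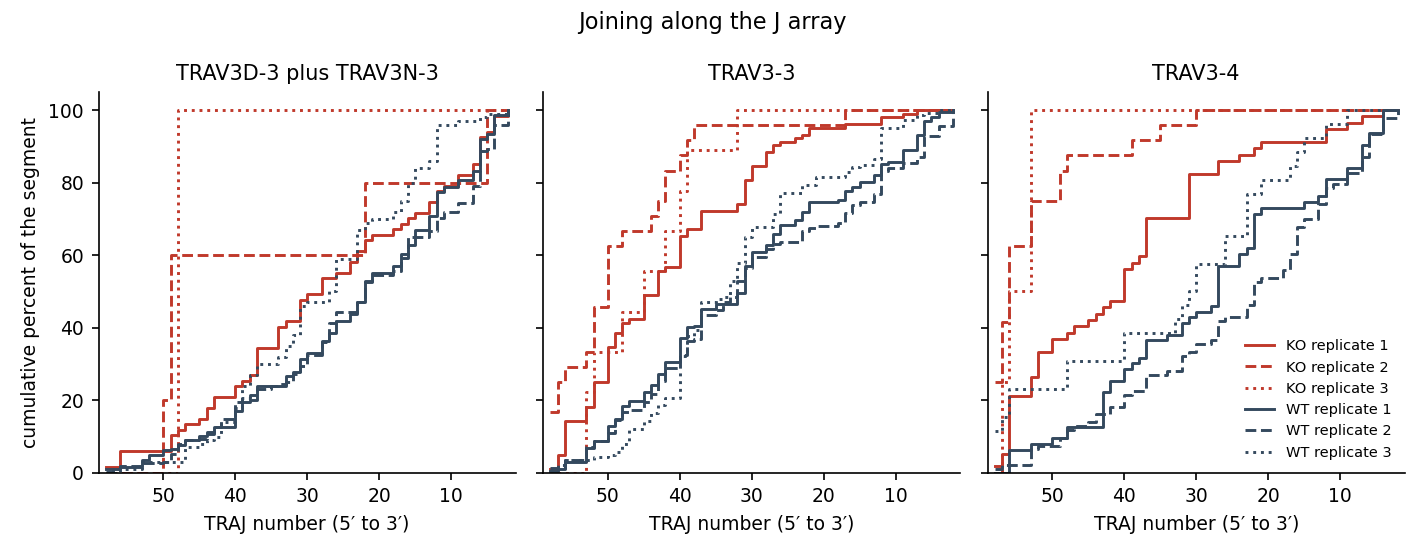
Cumulative percent of each segment's assignments (vertical axis) from TRAJ58 at the left to TRAJ2 at the right, one line per library. The KO lines of TRAV3-3 and TRAV3-4 rise before the WT lines, while KO replicate 1 of TRAV3D-3 plus TRAV3N-3 runs near the WT lines.

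Set against the rest of its own library, the Trav3-3 group was joined to J segments of lower number in both genotypes. The mean J number of the summed copies minus that of all V segments outside the group was -8.78, -2.21 and -3.45 in the KO libraries and -3.42, -4.81 and -2.10 in the WT libraries. It was lower in 6 of 6 libraries, with a mean difference of -4.13 and p = 0.0313 in an exact two-sided sign-flip permutation test, the smallest that 6 libraries allow, and an adjusted p of 0.185. The gap of KO minus that of WT was -1.37 (exact permutation p = 0.6, adjusted p = 0.694), and 0.61 without KO replicate 1. TRAV3D-3 and TRAV3N-3 together lay below the V segments other than the 4 described here in 6 of 6 libraries, with differences of -17.6, -13.3 and -0.62 in KO and -6.73, -7.11 and -4.75 in WT (exact sign-flip permutation p = 0.0313, adjusted p = 0.185). TRAV3-3 alone differed from them by between -3.73 and 1.23, higher in 2 libraries and lower in 4. This comparison of single copies was added after the values were seen.

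The mean J number of TRAV3-4 was above that of the summed Trav3-3 copies in 5 of 6 libraries, but above that of TRAV3-3 itself in only 3 of 6. TRAV3-4 minus the sum was 4.21, 6.54 and 9.55 in the KO libraries, against 1.45, -0.52 and 3.73 in the WT libraries. The gap was wider in every KO library than in any WT library, by 5.21 on average (exact two-sided permutation p = 0.1, adjusted p = 0.185). Set against TRAV3-3 alone, TRAV3-4 differed by -1.42, 4.21 and 9.86 in the KO libraries and by -3.23, -5.36 and 1.83 in the WT libraries, higher in 3 and lower in 3 (exact sign-flip permutation p = 0.719, adjusted p = 0.806). The genotypes overlapped in that difference (exact two-sided permutation p = 0.2, adjusted p = 0.285).

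Expressed as percent of the whole library, the J classes show where the shares differed. The 5′ J joins of the summed Trav3-3 copies held 1.32%, 1.36% and 0.821% of the KO libraries, against 1.55%, 1.34% and 1.03% of the WT libraries, and the genotypes overlapped. Their middle J joins held 0.611% ± 0.552 in KO and 3.06% ± 0.361 in WT, and their 3′ J joins 0.214% ± 0.274 in KO and 2.45% ± 0.871 in WT (SD, n = 3 each), both without overlap. TRAV3-3 alone held 1.06%, 1.19% and 0.703% of the KO libraries in 5′ J joins, against 0.983%, 0.629% and 0.698% of the WT libraries. In TRAV3D-3 all 3 classes were lower in KO, and its 5′ J joins held 0.217%, 0.178% and 0.117% of the KO libraries, against 0.571%, 0.661% and 0.337% of the WT libraries.

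In TRAV3-4 the J classes differed in opposite directions. Its 5′ J joins held 0.487%, 1.25% and 0.469% of the KO libraries, against 0.254%, 0.267% and 0.193% of the WT libraries, with every KO library above every WT library and KO replicate 2 the highest. Its 3′ J joins held 0.108%, 0% and 0% in KO, against 0.285%, 0.692% and 0.144% in WT, with every KO library below. Over all V segments outside the 4, 5′ J joins averaged 73.7% ± 6.92 in KO and 27.8% ± 1.92 in WT, and 3′ J joins 4.40% ± 2.87 in KO and 28.9% ± 4.15 in WT (SD, n = 3 each). These class values were added after the shares were seen and were not tested.

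**Figure D4:**
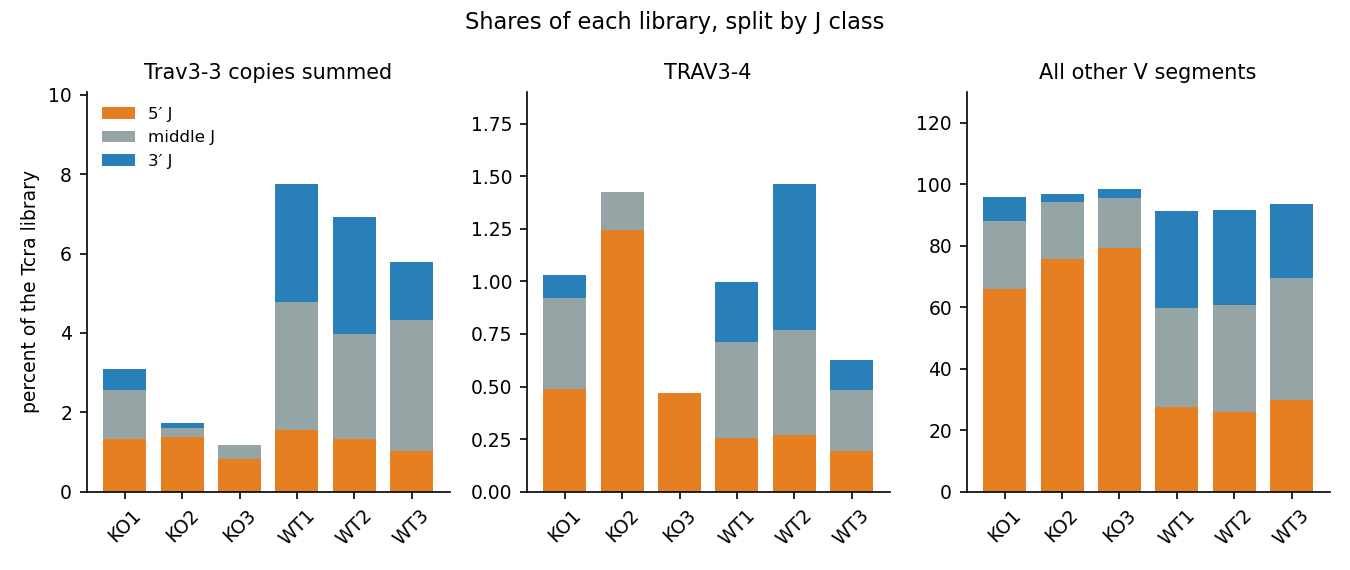
Percent of each Tcra library (vertical axes, each panel on its own scale) taken by the summed Trav3-3 copies, TRAV3-4 and all other V segments, split into 5′, middle and 3′ J joins, with KO libraries left of WT libraries. The 5′ J part of the Trav3-3 copies is 0.821% to 1.36% in KO and 1.03% to 1.55% in WT, and that of TRAV3-4 is 0.469% to 1.25% in KO and 0.193% to 0.267% in WT.

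Single pairs were tested where the mean share over the 6 libraries was at least 0.1%. With copies kept apart, 8 pairs of the 4 segments were among the 202 tested, and 2 of them fell in KO, beside 26 of all 202 (12.9%). TRAV3D-3 with TRAJ12 held 0.0361%, 0% and 0% of the KO libraries, against 0.285%, 0.173% and 0.241% of the WT libraries, and its log2 fold change was -3.38 (SE 0.747, limma adjusted p = 0.0194). TRAV3-3 with TRAJ37 held 0.0902%, 0% and 0% of the KO libraries, against 0.143%, 0.142% and 0.265% of the WT libraries, and its log2 fold change was -2.69 (SE 0.880, limma adjusted p = 0.0404). In both pairs KO replicate 1 was the KO library that held the join. Their KO means were 0.0120% and 0.0301%, so both reached the 0.1% mean through their WT values, and these counts describe the tested pairs only. The call for TRAV3-3 with TRAJ37 did not hold without KO replicate 2 (adjusted p = 0.0764) or 3 (limma adjusted p = 0.0740), and that for TRAV3D-3 with TRAJ12 did not hold without WT replicate 2 (adjusted p = 0.0833). The pair of TRAV3-4 with TRAJ56, the single pair of TRAV3-4 tested, held 0.162%, 0.297% and 0.117% of the KO libraries, against 0.0634%, 0% and 0.0481% of the WT libraries. Every KO library lay above every WT library, but the pair did not pass (log2 fold change 2.18, SE 0.822, limma adjusted p = 0.0609).

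With copies summed, 21 pairs of the Trav3-3 group and the same pair of TRAV3-4 were among 268 tested, and 10 pairs of the Trav3-3 group fell, beside 61 of all 268 (22.8%). These 10 pairs averaged at most 0.0662% in KO, so they reached the 0.1% mean through their WT values. Their lower KO values are therefore not independent of the filter, and these counts describe the tested pairs only. The largest change was with TRAJ12, which held 0.0722%, 0% and 0% of the KO libraries, against 0.396%, 0.315% and 0.530% of the WT libraries (log2 fold change -3.91, SE 0.850, limma adjusted p = 0.0151). The other 9 pairs, with TRAJ37, TRAJ31, TRAJ30, TRAJ27, TRAJ26, TRAJ23, TRAJ17, TRAJ16 and TRAJ6, had log2 fold changes between -3.47 and -2.35 and limma adjusted p-values between 0.0151 and 0.0421. All 10 join middle or 3′ J segments, and 0 of the 6 tested pairs of the group with 5′ J passed, the median log2 fold change of those 6 being -0.15. Lower middle and 3′ J joins were not particular to the group. Over the V segments outside the 4, middle J joins averaged 19.0% of the library in KO and 35.5% in WT. Their 3′ J joins averaged 4.40% in KO and 28.9% in WT. The J classes of the 61 lower pairs were not counted. Of the 10 pairs, 9 were listed at 0 in KO replicates 2 and 3 while all 10 were above 0 in KO replicate 1. Their WT means lay between 0.177% and 0.413%, against smallest values of 0.0593% and 0.117% in KO replicates 2 and 3. Of the Trav3-3 and Trav3-4 pairs, 11 passed without KO replicate 1, 6 without KO replicate 2 or 3, 1 without WT replicate 1 and 0 without WT replicate 2 or 3 or with a pseudocount of 0.00157%.

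The J segments joined most often differed between genotypes. In KO the 5 leading partners of the summed Trav3-3 copies were TRAJ53, TRAJ48, TRAJ52, TRAJ50 and TRAJ40, and in WT they were TRAJ12, TRAJ40, TRAJ6, TRAJ31 and TRAJ37. TRAJ52 made up 4.09%, 10.3% and 10.0% of the sum in the KO libraries, against 1.64%, 0.455% and 0.417% in the WT libraries, without overlap. As percent of the library it did overlap, at 0.117% in KO replicate 3 and 0.127% in WT replicate 1. TRAJ53 and TRAJ48 each made up 2.34%, 3.45% and 20.0% of the sum in the KO libraries, so their rank rests on KO replicate 3, which held the sum with 8 J segments. Without that library their KO mean was 2.89% each, against 1.69% for TRAJ53 and 1.93% for TRAJ48 in WT, and as percent of the library TRAJ53 averaged 0.122% in KO and 0.121% in WT. TRAJ40, in the middle of the array, was among the 5 leading partners in both genotypes with 6.63% ± 3.28 in KO and 5.99% ± 2.09 in WT (SD, n = 3 each). TRAV3-4 in KO joined TRAJ53, TRAJ56, TRAJ57, TRAJ58 and TRAJ31 most, and in WT TRAJ27, TRAJ23, TRAJ22, TRAJ40 and TRAJ56. Single libraries carried some of these KO ranks: TRAJ31 made up 12.3%, 0% and 0% of TRAV3-4 in the KO libraries, and TRAJ58 1.75%, 25.0% and 0%. TRAJ56 made up 15.8%, 20.8% and 25.0% of TRAV3-4 in the KO libraries, against 6.35%, 0% and 7.69% in the WT libraries, and TRAJ53 made up 5.26%, 12.5% and 50.0% in KO, against 1.59%, 4.30% and 0% in WT. As parts of TRAV3-4, both were higher in every KO library than in any WT library. As percent of the library TRAJ56 stayed apart, but TRAJ53 overlapped, at 0.0541% in KO replicate 1 and 0.0629% in WT replicate 2. The 50.0% of TRAJ53 came from KO replicate 3, which held TRAV3-4 with 3 J segments.

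Along the locus, each segment was set against the tested V segments around it. Most of all 84 tested V segments had a log2 fold change below 0, with a median of -0.73, so values below 0 were not particular to any neighbourhood. Of 12 other tested V segments within 100 kb of TRAV3D-3, 11 had a log2 fold change below 0, with a range of -3.09 to 0.18 and a median of -1.39, against -3.30 for TRAV3D-3. Assignments named TRAV3D-3 may in part belong to TRAV3N-3, whose transcript is identical and which lies at 873 kb. Around TRAV3N-3, 8 of 9 tested V segments lay below 0, with a median of -1.46. Within 100 kb of TRAV3-3, 7 of 15 lay below 0 with a median of 0.02, against -1.01 for TRAV3-3. Within 100 kb of TRAV3-4, 2 of 11 lay below 0 with a median of 0.62, against -0.13 for TRAV3-4. Each of the 3 tested segments thus had a lower value than the median of its neighbours. TRAV3-1, the closest relative of TRAV3-4 in sequence but the furthest of the Trav3 segments from the array at 1576 kb, held 0.0361%, 0% and 0% of the KO libraries, against 0.111%, 0.346% and 0.193% of the WT libraries.

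**Figure D5:**
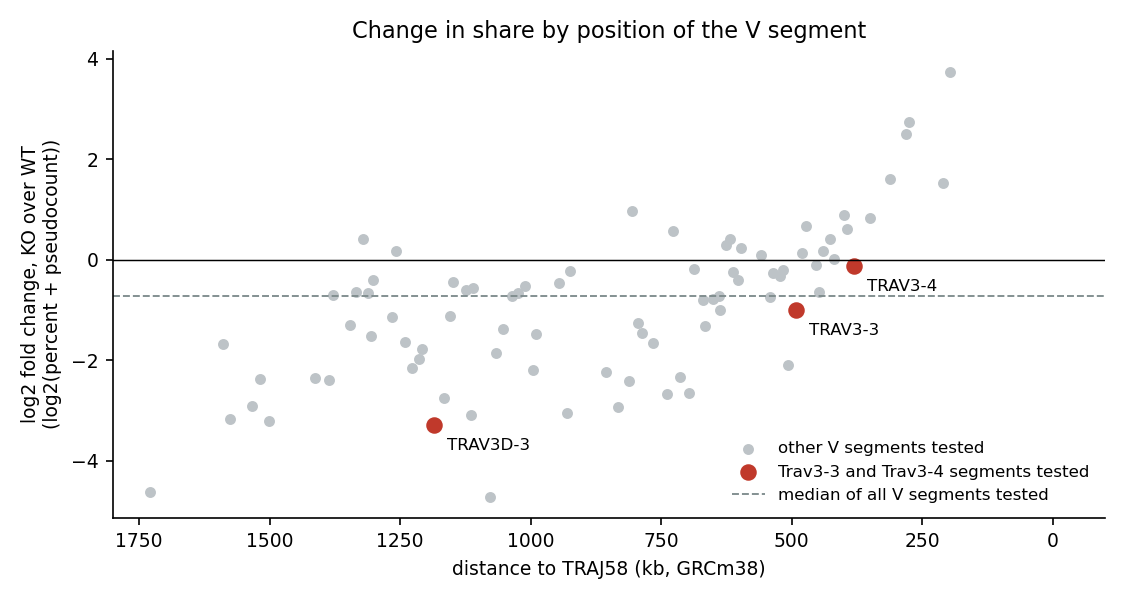
Log2 fold change of KO over WT on the log2(percent + pseudocount) scale (vertical axis) for 84 V segments against their distance to TRAJ58 in kb on GRCm38 (horizontal axis, J array to the right). TRAV3D-3 stands at -3.30, TRAV3-3 at -1.01 and TRAV3-4 at -0.13, the dashed line marks the median of -0.73, and TRAV3-4 has 0.79 when log values are centred. TRAV3D-3 is drawn at the position of its name, although its transcript is identical to that of TRAV3N-3.

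By J profile, the copy groups most like the summed Trav3-3 copies in WT were TRAV7-4, TRAV7-3 and TRAV7-5, with Pearson correlations of 0.770, 0.738 and 0.729 over 43 J segments and a median of 0.386 over 32 copy groups compared. In KO they were TRAV4-4, TRAV6-7 and TRAV14-1, with correlations of 0.789, 0.676 and 0.644 and a median of 0.486. In WT TRAV3-4 was most like the Trav3-3 group (0.559), with TRAV7-3 and TRAV7-4 close to it (0.541 and 0.530) and a median of 0.370. In KO TRAV3-4 was most like TRAV19, TRAV17 and TRAV21, which lie between it and the array (0.852, 0.829 and 0.816, median 0.608). That KO profile rests on 9 and 3 J segments in KO replicates 2 and 3. J segments of one genotype share their libraries, so these correlations are descriptions. Over the log2 shares of the 6 libraries, which form the 2 genotypes, the summed Trav3-3 copies followed TRAV1 (0.977), TRAV7-2 (0.940) and TRAV7-3 (0.891) most closely, and TRAV3-4 followed TRAV13-4 (0.749), TRAV13-1 (0.625) and TRAV7-2 (0.486).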

How the data were processed

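Transcripts of 4 receptor chains were sequenced in 24 libraries, and the 6 Tcra libraries were used. The authors deposited, per library, the percent of assignments joining each V to each J segment. Per the submitters' processing notes reads were processed with fastp; neither the V–J caller nor the build is named in the sources used here, nor whether reads or clonotypes were counted, and no molecular identifiers are mentioned in the labels. Values were whole multiples of each library's smallest value above 0 (within 0.01 of a multiple), but counts were not reconstructed, so precision rests on 3 libraries per genotype. Groups came from the labels.

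limma 3.58.1 in R 4.3.3, checked on simulated data, was fitted on log2(percent + 0.0157) to V segments, copy groups and V–J pairs whose mean reached 0.1%, with Benjamini-Hochberg adjustment over all features and calls at 0.05. Single values were compared with exact permutation tests. Named J partners were the 5 highest per genotype and every called pair. Copy groups alike by profile had a mean of at least 0.5%. The segments, lists and tests were chosen with earlier results of these data known. Alternatives are given at the end. Positions and sequences came from GENCODE M21 by gene name. Scripts ran in Python 3.11.15 with pandas 2.3.3 and numpy 2.4.6, exact tests and figures with scipy 1.17.1 and matplotlib 3.10.9.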

Additional observations from a re-analysis of the deposited data

How the results depend on the processing

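KO replicates 2 and 3 were the coarsest libraries, so joins under 0.0593% and 0.117% could not be listed there, and with 3 libraries per genotype the exact tests could not pass after adjustment. The sum of the Trav3-3 copies was below WT under every alternative run, but its call was lost in 8 of them. Below, the cause of each difference was not tested.

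Calls among V segments, 4 in the fit reported, numbered 7 without a filter, 10 with a filter of 1%, 1 with a pseudocount of 0.00157%, 18 with one of 0.117%, 11 with a variance trend, 8 with values under the coarsest library's smallest value set to 0, and 0 with each pair counted once (no tool other than limma was run). Among copy groups, 9 in the fit reported, they numbered 4 and 17 with the smaller and larger pseudocounts and 15 with a variance trend. Among V–J pairs, 72 in the fit reported, they numbered 140 without a filter, 2 with a filter of 1%, 5 with the smaller pseudocount and 36 with centred log ratios. With copies summed, 106 in the fit reported, they numbered 4, 3 and 62 with a filter of 1%, the smaller pseudocount and the coarse values set to 0. Leaving out 1 library gave 0 to 14 V segments, 3 to 15 copy groups, 7 to 79 pairs and 0 to 109 pairs with copies summed.

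Equal replicate numbers correlated at -0.04 to 0.32 in V segments and 0.06 to 0.17 in V–J pairs, under the bound of 0.1 for at least 1 number, though in V–J pairs with copies kept apart each library correlated best with its own number. With the replicate block, calls numbered 15 V segments and 18 copy groups, TRAV3D-3 passed (limma adjusted p = 0.0288), 3 more pairs of the described segments passed with copies kept apart (TRAV3D-3 with TRAJ22, TRAV3D-3 with TRAJ6 and TRAV3-3 with TRAJ31, limma adjusted p of 0.0492, 0.0242 and 0.0299), and 11 rather than 10 pairs passed with copies summed. No call made in the fit reported for these segments and pairs was lost.

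Reversals concerned differences that did not pass in the fit reported. The log2 fold change of TRAV3-3 was 0.073 with each pair counted once. That of TRAV3-4 was 0.79 among V segments and 0.51 among copy groups with centred log ratios, and -0.47 to 0.31 leaving out 1 library. With the coarse values set to 0 it was 5.16 and passed (limma adjusted p = 0.0140 and 0.00441). The joins of TRAV3-4 in the WT libraries fall under that cut of 0.117%, so KO was there compared with WT values set to 0. Its uncut means were 0.974% in KO and 1.03% in WT, so this pass does not show a higher share. With each pair counted once, the mean J number of TRAV3N-3 minus TRAV3D-3 was -0.96 and that of TRAV3-3 minus the other V segments 0.55. With the coarse values set to 0, TRAV3N-3 had a difference of 0 in its part of the copies. The gaps of KO minus those of WT were then 5.46 for the summed copies against the rest, 7.41 for TRAV3D-3, alone or with TRAV3N-3, against TRAV3-3, 9.92 for TRAV3D-3 plus TRAV3N-3 against the other V segments, and 1.19 for TRAV3-3 against them. Leaving out 1 library, the gap of KO minus WT ranged from -2.67 to 0.61 for the summed copies against the rest, from -7.94 to 1.15 for TRAV3D-3 against TRAV3-3 and from -7.40 to 1.33 with TRAV3N-3 added. Over libraries, it gave -0.99 to 1.26 for TRAV3-4 minus the rest, -0.79 to 2.25 for TRAV3-4 minus TRAV3-3 and -5.97 to 4.78 for TRAV3N-3 minus TRAV3D-3.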
